A study of Mus musculus with 6 samples.

Results

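The annexins and Ahnak, the scaffold protein gene tied to S100a10, were followed across 6 Affymetrix arrays of mouse cortex RNA. Members were taken by name as Anxa1, Anxa2, Anxa3, Anxa4, Anxa5, Anxa6, Anxa7, Anxa11 and Ahnak, with every probe set whose only gene symbol in the platform annotation is one of them. That gave 21 probe sets for 8 of the 9 genes, out of 45101 probe sets and 18194 gene symbols on the array. Anxa11 shares its probe set with other symbols and was not analysed here.

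The TRAP group held 3 samples of RNA bound to tagged ribosomes, precipitated from cortex of the bacterial artificial chromosome transgenic line ES691, in which S100a10 regulatory sequence is the driver. TRAP, translating ribosome affinity purification, pulls down a tagged ribosomal protein together with the mRNA on those ribosomes. The unbound group held 3 samples of cortex RNA from the same line, called input in the titles and unbound or flow-through elsewhere in the labels. All 6 samples carried the transgene, came from mice backcrossed from FVB onto C57BL/6 for 3 to 5 generations, and had no treatment; age, sex and number of animals are not given in the sources used here. The labels number the samples as biological replicates without naming separate animals. The p-values therefore reflect variation among these RNA samples, some of which may be technical, and values repeated within a group understate that variation. The series text states that the line labels some cells that are not neurons, so the TRAP values cover every labelled cell.

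Annexins are calcium-dependent proteins that bind acidic phospholipids and link membranes to the cytoskeleton. Each has a conserved core and a variable amino-terminal tail, and the tails carry the sites for S100 partners. Annexin A2 binds S100A10 (p11) through its tail, and the pair forms a tetramer that anchors channels and receptors near the membrane. The carboxy-terminal part of the very large protein AHNAK binds that complex. In cortex S100A10 is best known for its role in responses to antidepressants, while annexins are typical of fibroblasts, vessel walls, epithelia and leukocytes.

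Values are normalised intensities on a linear scale, as deposited. The series text names an expression limit of 50, and a probe set was tested if the mean of at least 1 group reached it. This left 14 of the 21 member probe sets, 10 of them at 50 or more in both groups, 3 through TRAP only and 1 through unbound only. The median intensity of the whole array lay between 31.4 and 31.8 on TRAP arrays and between 42.4 and 43.1 on unbound arrays. The driver gene S100a10 averaged 14128 ± 1095 in TRAP RNA against 2430 ± 451 in unbound RNA (SD, n = 3 each; log2 2.55, limma adjusted p = 8.4e-05), the direction the labels imply. Its probe set 1416762_at gave 2.82, while 1439348_at stayed under 50 in both groups.

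**Figure D1:**
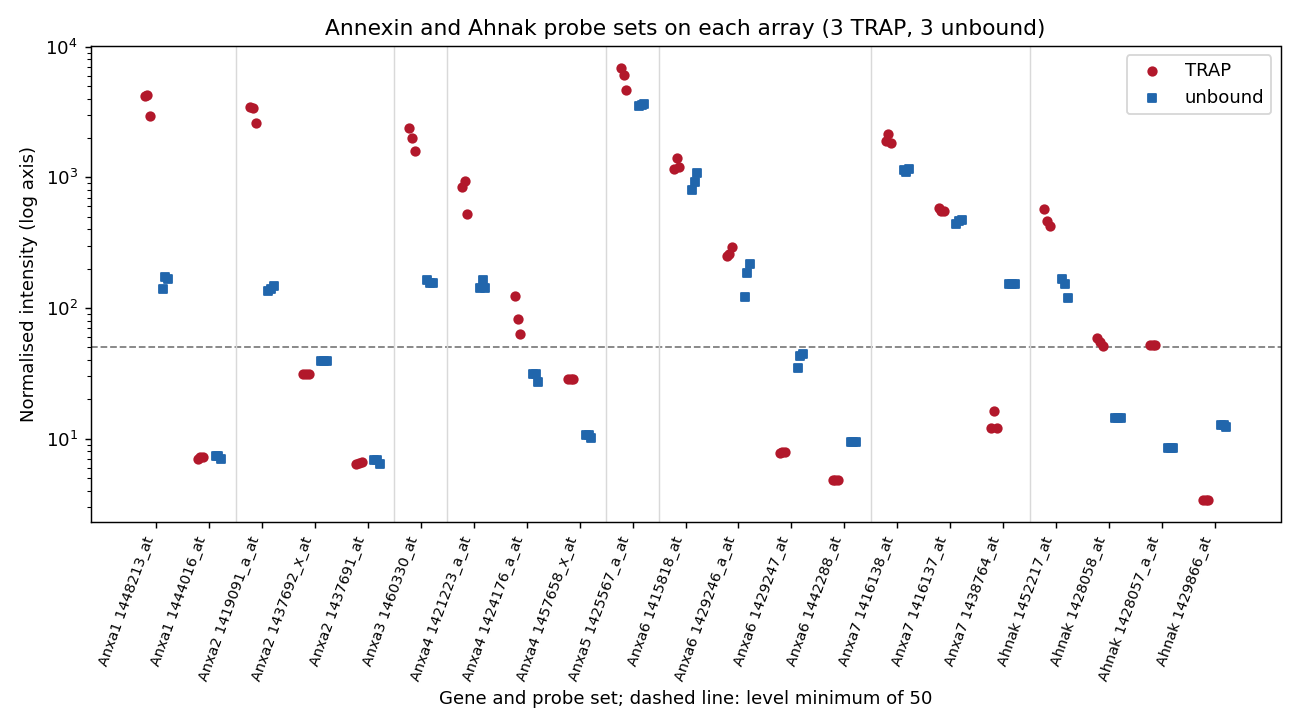
Normalised intensity (log axis) of the 21 member probe sets on each array, grouped by gene, with TRAP arrays as circles left of the unbound arrays as squares. The leading probe sets of Anxa1, Anxa2 and Anxa3 read 1577 or more on each TRAP array and 174 or less on each unbound array, and several other probe sets of the same genes lie under the dashed line at 50 in both groups.

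Anxa2 and Ahnak, whose products form the complex with S100A10, were higher in TRAP RNA. Probe set 1419091_a_at of Anxa2 read 3437, 3360 and 2580 on the TRAP arrays, against 136, 138 and 147 on the unbound arrays. The lowest TRAP array lay far above the highest unbound array. The log2 fold change was 4.46 (SE 0.13, limma adjusted p = 7.2e-06), a 22.1-fold difference. The other Anxa2 probe sets, 1437692_x_at and 1437691_at, did not reach 50 on any array. The first of these read 31.0 on each TRAP array and 39.0 on each unbound array, and the second 6.43 to 6.63 in TRAP RNA and 6.37 to 6.88 in unbound RNA. Only 1 of 3 probe sets for the gene therefore carried the difference.

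Ahnak was measured by 4 probe sets. The brightest, 1452217_at, read 572, 464 and 426 on the TRAP arrays and 167, 153 and 119 on the unbound arrays. The groups did not overlap, and the log2 fold change was 1.74 (SE 0.17, limma adjusted p = 6.4e-04), a 3.33-fold difference. Probe sets 1428058_at and 1428057_a_at reached 50 in TRAP RNA only. The first read 59.0, 55.2 and 51.6 on the TRAP arrays against 14.5 on each unbound array, and the second 52.3 on each TRAP array against 8.43 on each unbound array. Their folds of 3.81 and 6.21 are set by unbound values near background, and with values under 50 raised to 50 they were 1.10 and 1.05. The first then lost its call (limma adjusted p = 0.068). Since 1428057_a_at has no spread within either group, its p-value rests on the spread borrowed from other probe sets. The fourth, 1429866_at, lay at 3.37 in TRAP RNA and between 12.3 and 12.7 in unbound RNA, under 50 throughout.

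The sequence before the gene start is shown for members that differ in fold, since the complex partners and Anxa1 were higher together and Anxa5 differed less. Each line holds the 250 bases before the RefSeq start on the gene's strand (GRCm38.p6), 5′ to 3′. They are Anxa2 at chr9:69453433-69453682 on the plus strand, Ahnak at chr19:8989034-8989283 on the plus strand, Anxa1 at chr19:20390672-20390921 on the minus strand and Anxa5 at chr3:36475888-36476137 on the minus strand. Capitals mark matches on either strand to 4 motifs. The TATA box was searched as TATAAA and the GC box as GGGCGG. The AP-1 site was searched as TGANTCA. The MCAT element was searched as GGAATG.
Anxa2: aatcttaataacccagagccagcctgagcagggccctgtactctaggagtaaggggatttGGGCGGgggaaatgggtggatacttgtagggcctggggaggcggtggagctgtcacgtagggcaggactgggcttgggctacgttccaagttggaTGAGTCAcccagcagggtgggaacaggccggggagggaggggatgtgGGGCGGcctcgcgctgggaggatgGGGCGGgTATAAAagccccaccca
Ahnak: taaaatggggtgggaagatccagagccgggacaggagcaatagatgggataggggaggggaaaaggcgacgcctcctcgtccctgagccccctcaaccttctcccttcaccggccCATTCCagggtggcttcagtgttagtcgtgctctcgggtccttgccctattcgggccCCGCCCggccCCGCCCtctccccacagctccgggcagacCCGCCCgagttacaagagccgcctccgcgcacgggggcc
Anxa1: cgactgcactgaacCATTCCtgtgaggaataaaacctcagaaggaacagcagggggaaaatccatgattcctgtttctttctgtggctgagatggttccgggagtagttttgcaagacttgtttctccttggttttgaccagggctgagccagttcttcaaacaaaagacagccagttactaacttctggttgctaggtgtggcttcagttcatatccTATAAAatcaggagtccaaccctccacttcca
Anxa5: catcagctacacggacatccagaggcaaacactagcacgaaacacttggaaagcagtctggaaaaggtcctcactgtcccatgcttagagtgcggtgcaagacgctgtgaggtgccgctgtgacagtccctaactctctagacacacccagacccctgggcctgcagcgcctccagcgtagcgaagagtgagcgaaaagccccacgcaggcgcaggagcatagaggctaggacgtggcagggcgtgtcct

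None of these matches overlapped another. Anxa2 held a TATA box starting 17 bases before the gene start, 3 GC boxes and an AP-1 site starting 95 bases before it. Anxa1 held a TATA box 32 bases before the start and an MCAT element at 236. Ahnak held 3 GC boxes and an MCAT element at 135, and these letters are not in the Anxa5 window. Over all 32851 such windows of the RefSeq table, 12.4% held the TATA box, 32.7% the GC box, 6.75% the AP-1 site and 12.6% the MCAT element. Of the 9 listed genes 7 had a window, 9 windows in all; 2 of these held the TATA box, 5 the GC box, 1 the AP-1 site and 2 the MCAT element. Windows of the same gene can overlap. Both windows of Anxa4, with a log2 fold change of 2.32, held none of the 4 motifs. Those of Anxa7, with 0.79, held 4 GC boxes and 1. Whether these motifs go with the fold was not tested. Anxa3 and Anxa6 had no entry.

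Anxa1, Anxa3 and Anxa4 were also higher in TRAP RNA. Anxa1 encodes a glucocorticoid-induced protein that acts on formyl peptide receptors and binds S100A11. Its probe set 1448213_at read 4218, 4273 and 2921 on the TRAP arrays and 140, 174 and 166 on the unbound arrays. The groups were widely apart, with a log2 fold change of 4.56 (SE 0.18, limma adjusted p = 2.4e-05). The other Anxa1 probe set, 1444016_at, lay between 6.97 and 7.27 in TRAP RNA and between 6.93 and 7.33 in unbound RNA, and the groups overlapped.

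Anxa3, an annexin found in neutrophils, microglia and vascular cells, has 1 probe set here, 1460330_at. It read 2371, 1997 and 1577 on the TRAP arrays and 163, 156 and 156 on the unbound arrays, with all TRAP values above all unbound values. The log2 fold change was 3.63 (SE 0.16, limma adjusted p = 3.0e-05), a 12.4-fold difference.

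Anxa4, an annexin abundant in secretory epithelia, differed less. Probe set 1421223_a_at read 845, 937 and 525 on the TRAP arrays and 142, 164 and 143 on the unbound arrays. The groups did not overlap, though TRAP replicate 3 lay well under the other TRAP arrays. The log2 fold change was 2.32 (SE 0.24, limma adjusted p = 7.2e-04). Probe set 1424176_a_at read 124, 81.7 and 62.9 against 31.0, 31.1 and 27.0, a log2 fold change of 1.54 (SE 0.27, limma adjusted p = 0.0048). It reached 50 in TRAP RNA only, and its fold of 2.91 was 1.72 with values under 50 raised to 50. The third Anxa4 probe set, 1457658_x_at, read 28.5 on each TRAP array and 10.2 to 10.6 on the unbound arrays.

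At their brightest probe sets, Anxa5, Anxa6 and Anxa7 differed by less than 2-fold; some other probe sets of Anxa6 and Anxa7 lay lower in TRAP RNA. Anxa5 encodes the phosphatidylserine-binding protein used to stain dying cells. Probe set 1425567_a_at read 6909, 6065 and 4675 on the TRAP arrays and 3517, 3589 and 3613 on the unbound arrays. The TRAP arrays spread widely, the unbound arrays hardly at all, and the groups did not overlap. The log2 fold change was 0.70 (SE 0.15, limma adjusted p = 0.011), a 1.63-fold difference.

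Anxa6, an annexin with a duplicated core, was measured by 4 probe sets that did not move alike. Probe set 1415818_at read 1157, 1415 and 1190 on the TRAP arrays and 803, 917 and 1075 on the unbound arrays, so that the groups nearly touched. Its log2 fold change of 0.43 (SE 0.14) had limma adjusted p = 0.039. The call was lost with the replicate block (adjusted p = 0.051) and without any one of TRAP replicates 1, 2 and 3 or unbound replicates 1 and 2 (limma adjusted p 0.065, 0.10, 0.079, 0.093 and 0.10). Probe set 1429246_a_at read 248, 260 and 290 against 122, 186 and 217. Its log2 fold change of 0.64 (SE 0.23) was not called (limma adjusted p = 0.058), but it was called with the replicate block (adjusted p = 0.038), without unbound replicate 1 or 3 (0.036 and 0.037), with probe sets of repeated values left out (0.032), and under both rescalings of the arrays (0.0077 and 0.015). Probe sets 1429247_at and 1442288_at stayed under 50 and lay lower in TRAP RNA, at 7.80 to 7.90 against 34.6 to 44.3 and at 4.80 to 4.87 against 9.50.

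Anxa7 encodes synexin, which binds sorcin and the calcium sensor encoded by Pdcd6. Its probe sets went in opposite directions. Probe set 1416138_at read 1904, 2129 and 1833 on the TRAP arrays and 1143, 1092 and 1160 on the unbound arrays, a log2 fold change of 0.79 (SE 0.07, limma adjusted p = 3.4e-04). Probe set 1416137_at read 581, 551 and 551 against 442, 465 and 470, a log2 fold change of 0.29 (SE 0.04, limma adjusted p = 0.0021). Probe set 1438764_at read 12, 16.2 and 12 on the TRAP arrays against 153 on each unbound array. It was the 1 member probe set called lower, at a log2 fold change of -3.53 (SE 0.13, limma adjusted p = 1.8e-05), and with values under 50 raised to 50 the change was -1.61. Which part of the transcript each probe set covers was not used here.

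**Figure D2:**
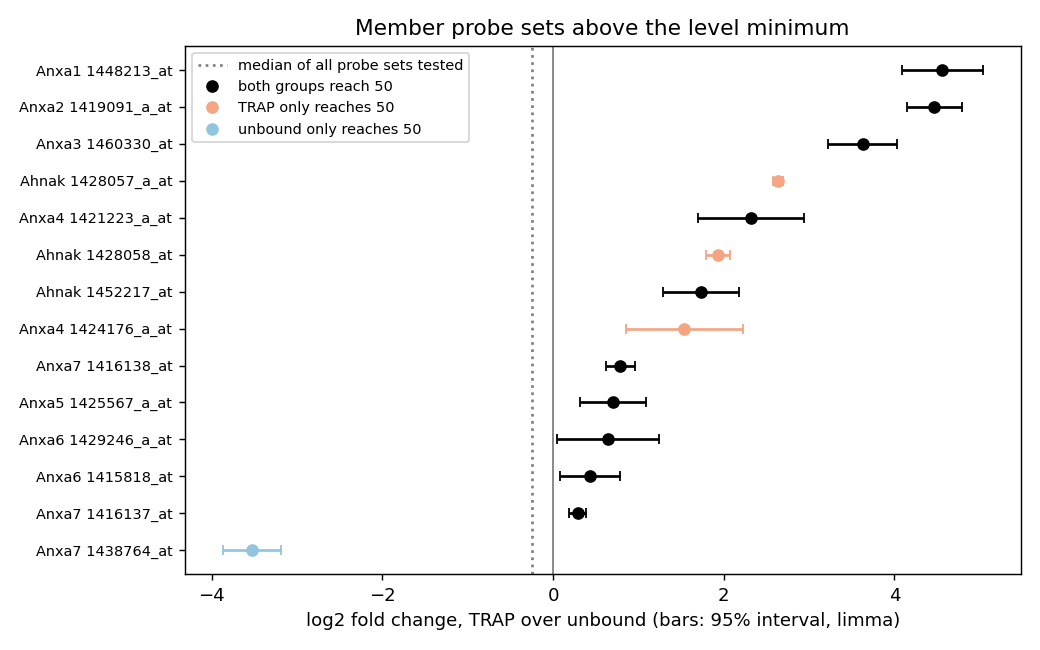
Log2 fold change (TRAP over unbound, x axis) with its 95% limma interval for the 14 member probe sets above the level minimum, 1 per row; colour gives which groups reach 50. Values run from -3.53 for Anxa7 1438764_at to 4.56 for Anxa1 1448213_at, and the dotted line is the median of all tested probe sets, -0.25.

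Of the 14 tested member probe sets, 12 were called higher and 1 lower by limma at an adjusted p under 0.05. Over all 22591 tested probe sets, 20.6% were called higher and 47.7% lower. Against a 2-fold change (limma's treat), 7 member probe sets were called higher and 1 lower, where 3.82% and 9.49% of all tested were. These counts hold 4 probe sets that passed the minimum through a single group, which had to differ. With both means required to reach 50, 9 of 10 were called higher, where 19.2% of 19452 probe sets were. Without the minimum, 13 of all 21 member probe sets were called higher and 5 lower, against 24.6% and 49.3% of 45037 probe sets; past 2-fold the counts were 8 and 3, against 3.05% and 9.14%. The 3 TRAP arrays lay above all unbound arrays in 14 of the 21 and below them in 5, where 27.3% and 52.9% of all probe sets did so. The median log2 fold change of the 21 was 0.70, and that of all probe sets was -0.17. With each gene taken by its probe set of highest mean, the 8 member genes were called higher in TRAP RNA, where 23.3% of 12070 genes were called higher and 45.7% lower. Of the 8, 5 passed the test against a 2-fold change, where 4.51% of genes were higher and 6.43% lower. That choice of probe set favours bright ones, and the members were chosen with earlier results of these arrays known.

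The balance of calls over the array depended on the scaling between arrays. As deposited, 4663 probe sets were called higher and 10767 lower; after median centring 9928 and 5712, and after quantile normalisation 7083 and 7853. The median log2 fold change of all tested probe sets was -0.25 as deposited, 0.19 after centring and -0.03 after quantile normalisation. Directions of the 14 tested member probe sets were the same under both rescalings. Relative to the median of all tested probe sets, the changes as deposited were 4.81 for Anxa1, 4.72 for Anxa2, 3.88 for Anxa3, 0.95 for Anxa5 and 0.68 for Anxa6 1415818_at.

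Ordered by log2 fold change of the brightest probe set, the genes ran Anxa1, Anxa2, Anxa3, Anxa4, Ahnak, Anxa7, Anxa5 and Anxa6. Neighbours in this order were set against each other within each array, as a description with no test, since the order comes from the same values. Anxa1 and Anxa2 were not separated, with log2 differences of 0.18 to 0.35 on TRAP arrays and 0.04 to 0.33 on unbound arrays. Anxa7 and Anxa5 were not separated either, nor were Anxa5 and Anxa6. The steps from Anxa2 to Anxa3, Anxa3 to Anxa4, Anxa4 to Ahnak and Ahnak to Anxa7 had TRAP differences above all unbound ones, by means of 0.84, 1.31, 0.59 and 0.95.

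The members were also set against S100a10 within each array, because annexin A2 and AHNAK act in a complex with its product. The log2 difference of Anxa2 from S100a10 (probe set 1456642_x_at) was -2.06, -2.17 and -2.33 on the TRAP arrays and -4.44, -3.97 and -3.88 on the unbound arrays. The groups did not overlap, and the mean difference of 1.91 corresponds to a 3.76-fold larger change of Anxa2. For Ahnak the differences lay the other way, at -4.65, -5.02 and -4.93 against -4.14, -3.83 and -4.18, a mean difference of -0.82. The mean differences of Anxa1 and Anxa3 were 2.01 and 1.08, and those of Anxa5, Anxa6 and Anxa7 were -1.85, -2.12 and -1.77. Only Anxa4 overlapped between the groups, with a mean difference of -0.23. Each mean difference equals the gene's log2 fold change minus that of S100a10, so it adds no separate evidence. Separation is common here: before any subtraction, the TRAP arrays lay above all unbound arrays in 27.3% of all probe sets and below them in 52.9%. The share of other genes that separate after S100a10 is subtracted was not computed. The design cannot reach an exact p under 0.05. For the other 7 genes the exact two-sided permutation p was 0.1, the smallest possible, and 0.114 after Benjamini-Hochberg adjustment over the 8 genes; for Anxa4 it was 0.5. With S100a10 probe set 1416762_at the directions were the same, at 1.64 for Anxa2 and -1.09 for Ahnak.

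**Figure D3:**
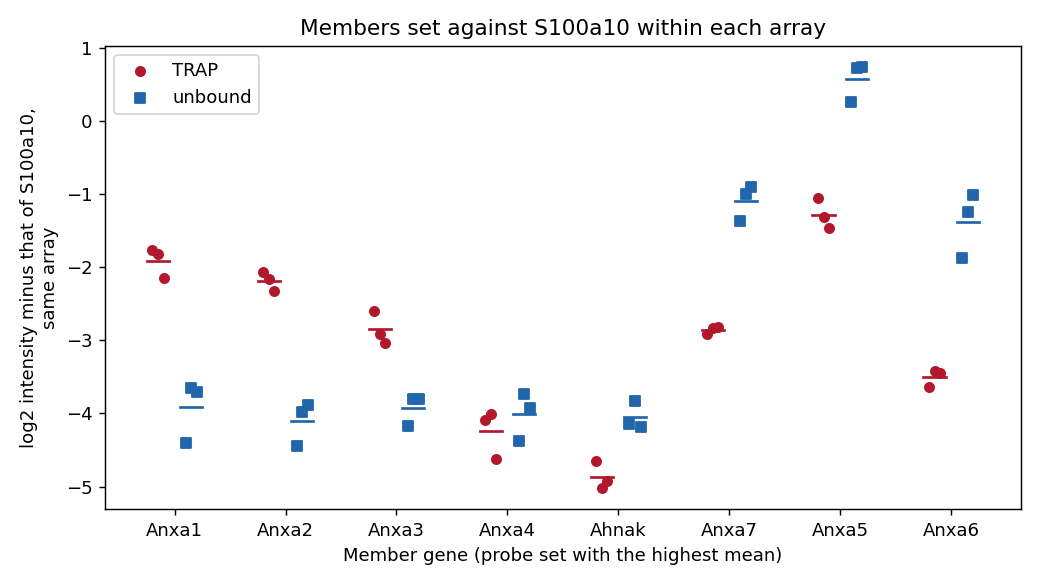
Log2 intensity of each member gene minus that of S100a10 on the same array (y axis), TRAP arrays as circles left of unbound arrays as squares, short lines at group means. Anxa1, Anxa2 and Anxa3 lie higher on the TRAP arrays, Anxa4 overlaps, and Ahnak, Anxa7, Anxa5 and Anxa6 lie lower; heights of different genes cannot be compared because their probes differ.

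Genes whose products bind annexins or AHNAK did not share 1 direction. Of 15 listed, 13 had a probe set with a single symbol and 10 were tested; 5 were called higher and 4 lower, where 23.3% and 45.7% of all genes tested were. The median log2 fold change was 0.29 against -0.21 for all genes. The 5 include S100a10, the driver of the purification, so that 4 others were higher, beside 4 lower. Among the higher ones, S100a4 passed the minimum through TRAP only and had to differ. The other 9 tested genes reached the minimum in both groups and held 4 higher, S100a10 among them, and 4 lower. S100a6, which encodes a partner of annexins A2, A6 and A11, read 2017, 1856 and 1701 on the TRAP arrays against 717, 579 and 579 on the unbound arrays. Its log2 fold change was 1.58 (limma adjusted p = 1.9e-04). S100a4, another annexin A2 partner, read 163, 118 and 95.9 against 35.8 on each unbound array (log2 1.77, limma adjusted p = 1.0e-03). Sri, the gene of sorcin, was higher by log2 0.97 at probe set 1450878_at (limma adjusted p = 7.2e-04), while 1423155_at overlapped between groups at -0.15 (0.40). Pdcd6 was higher by log2 0.30 (limma adjusted p = 0.0011).

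The partners called lower, 4 of 10 tested, were Cacnb2, Cacna1c, Pdcd6ip and Hltf, where 45.7% of all genes tested were lower. Cacnb2, a subunit of L-type calcium channels bound by AHNAK, read 265, 211 and 277 on the TRAP arrays and 512, 461 and 504 on the unbound arrays (log2 -0.98, limma adjusted p = 0.0013). Cacna1c, the pore subunit, had a log2 fold change of -0.87 (limma adjusted p = 0.0028) and Pdcd6ip, the gene of ALIX, -0.64 (0.0064). Further probe sets of Cacnb2 (1452476_at) and Cacna1c (1421297_a_at) were lower too, at -1.09 and -0.42 (limma adjusted p = 0.0025 and 0.019). Pdcd6ip 1415937_s_at was not called after median centring (-0.20, limma adjusted p = 0.18). Of the other tested Pdcd6ip probe sets, 1448155_at was lower at -0.61 (limma adjusted p = 0.015) and 1449674_s_at stood at 0.03 (limma adjusted p = 0.21). Hltf, which encodes a chromatin remodeller that binds the S100A10-annexin A2 complex, read 535, 630 and 563 against 712, 653 and 750 at probe set 1450889_at (log2 -0.29, limma adjusted p = 0.029). That direction turned to 0.14 after median centring (limma adjusted p = 0.20), and the call was also lost after quantile normalisation (-0.06, 0.58), with the replicate block (0.080), with probe sets of repeated values left out (0.061), and when replicate 1 or 3 of either group was left out (limma adjusted p from 0.079 to 0.086). A dimmer Hltf probe set, 1425996_a_at, reached 50 in unbound RNA only and had a log2 fold change of -0.90 (limma adjusted p = 0.0028). Plat, the plasminogen activator gene, was not called (log2 0.27, limma adjusted p = 0.28), but it was without TRAP replicate 1 (log2 0.47, adjusted p = 0.033) and after median centring (0.71, adjusted p = 0.021). Dysf, Fpr2 and Plg stayed under 50 in both groups, at 21.9, 7.19 and 11.2 in TRAP RNA against 30.7, 16.2 and 6.76 in unbound RNA. Fpr2, a receptor for annexin A1, thus gave no level above the minimum beside Anxa1. S100a11 shares its probe set with other symbols and Fpr1 is not named in the annotation, so neither was analysed here.

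Other family members outside the named set included 1 further annexin with a large difference. Anxa8 probe set 1417732_at read 301, 325 and 200 on the TRAP arrays and 11.8, 11.8 and 11.3 on the unbound arrays (log2 4.53, limma adjusted p = 3.1e-05). Its other probe set, 1425789_s_at, read 134, 134 and 115 against 4.90, 4.90 and 4.78. Both passed the minimum through TRAP only; with values under 50 raised to 50, the log2 change of 1417732_at was 2.43. Ahnak2, a gene related to Ahnak, read 56.5 on each TRAP array and 8.58 to 8.70 on the unbound arrays. Anxa9, Anxa10 and Anxa13 lay between 5.23 and 7.31 in TRAP RNA and between 6.23 and 8.63 in unbound RNA.

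The genes whose profiles lay nearest to Anxa2 over the 6 arrays, each centred on its own mean log2 value, were Aldh1a2, Cnn2 and Pgm5 at Euclidean distances of 0.22, 0.26 and 0.27. Aldh1a2 makes retinoic acid, Cnn2 encodes a calponin and Pgm5 a protein of cell adhesion sites; their log2 fold changes were 4.59, 4.54 and 4.39. The last of these rests on unbound values of 15.6 to 16.2 and was 2.75 with values under 50 raised to 50. Nearest to Ahnak were Rab32, Ctdsp1 and Dcdc2a at 0.23, 0.28 and 0.31, with log2 fold changes of 1.79, 1.81 and 1.84. Over 6 arrays in 2 groups such distances mostly reflect the group difference.

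Within the TRAP group, replicate 3 was the lowest array for 9 of the 14 tested member probe sets (64.3%) and for 25.1% of all tested probe sets. Its median log2 difference from the mean of the other TRAP arrays was -0.25 for the members and 0 for all probe sets. Among the meningeal fibroblast markers it was lowest for 5 of 14, at a median of -0.08. Leaving that array out left Anxa1 to Anxa5, Anxa7 and Ahnak 1452217_at called in the same direction.

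Markers of other cells differed between the groups in both directions. The marker lists were chosen with earlier results of these arrays known, so their counts are a description. Over all 12070 genes tested, 23.3% were called higher and 45.7% lower, with a median log2 fold change of -0.21. Of 15 meningeal fibroblast markers 14 were tested and called higher, with summed intensities of 42083 to 47244 in TRAP RNA and 1773 to 2117 in unbound RNA. Of those 14, 5 passed the minimum through TRAP only and had to differ; the other 9 reached 50 in both groups. Foxd1, a forkhead transcription factor gene, had the largest fold of the list at 53.1. Aldh1a2, the gene nearest to Anxa2, is also on it, while Cnn2 and Pgm5, the next nearest, are on none of the marker lists.

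Of 8 tested pericyte and smooth muscle markers 5 were higher and 2 lower, summing to 5918 to 7383 in TRAP RNA against 2952 to 3258 in unbound RNA, and Myl9, a myosin light chain gene, was 11.7-fold higher. Of 6 tested endothelial markers 3 were higher and 3 lower, summing to 5251 to 5790 against 1363 to 1433. Itm2a, 8.74-fold higher, made up most of that TRAP sum, and without it the list summed to 1183 to 1521 against 892 to 968. Choroid plexus and ependymal markers were higher in 3 of 5 tested and lower in 1. Of the 5, 2 passed the minimum through TRAP only and had to differ. Among these was Kcnj13, a channel gene that was 15.2-fold higher. The 3 with both means at 50 or more held 1 higher and 1 lower. The list summed to 1155 to 1420 against 338 to 3147, where the highest value belonged to unbound replicate 3. Without Kcnj13 these sums were 365 to 653 against 287 to 3097.

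The labels name cortical pyramidal cells as the target, and all 9 markers tested reached 50 in both groups. Of these 4 were called higher and 3 lower, with a median log2 fold change of -0.08 and sums of 16961 to 17615 in TRAP RNA against 20536 to 23755 in unbound RNA. The largest change in the direction of that median was -2.05, for Bcl11b, a gene of deep-layer projection neurons. Without it the sums overlapped, at 15525 to 15824 against 14026 to 16502.

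Of 9 tested microglia markers 8 were lower, with sums of 546 to 794 in TRAP RNA against 1694 to 2246 in unbound RNA. Of the 9, 5 passed the minimum through unbound only, and 3 of the other 4 were lower. P2ry12 had a log2 fold change of -3.76, or -1.02 with values under 50 raised to 50. Oligodendrocyte markers were lower in 8 of 9 tested, summing to 9127 to 14741 against 52634 to 58300, with Ermn at -4.24. In that list 1 marker passed the minimum through unbound only, and 7 of the other 8 were lower. Astrocyte markers were higher in 3 and lower in 5 of 10, shares near those over all genes, and summed to 20375 to 24524 against 30657 to 40394. Here too 1 marker passed through unbound only, and the other 9 held 3 higher and 4 lower. Gfap, an astrocyte filament gene, stood at -4.29, or -2.94 with values under 50 raised to 50. Border macrophage markers were higher in 1 and lower in 3 of 4 tested, but 3 of the 4 passed the minimum through a single group, and sums were 210 to 232 against 253 to 271. Mrc1 was called at -1.35, and that call was lost with values under 50 raised to 50 (-0.04, limma adjusted p = 0.41). No marker had a value of 0 on any array. The part of any of these cells in the annexin and Ahnak values was not tested. In such bulk RNA, the number of labelled cells of a type and the ribosome-bound RNA from each cannot be told apart.

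**Figure D4:**
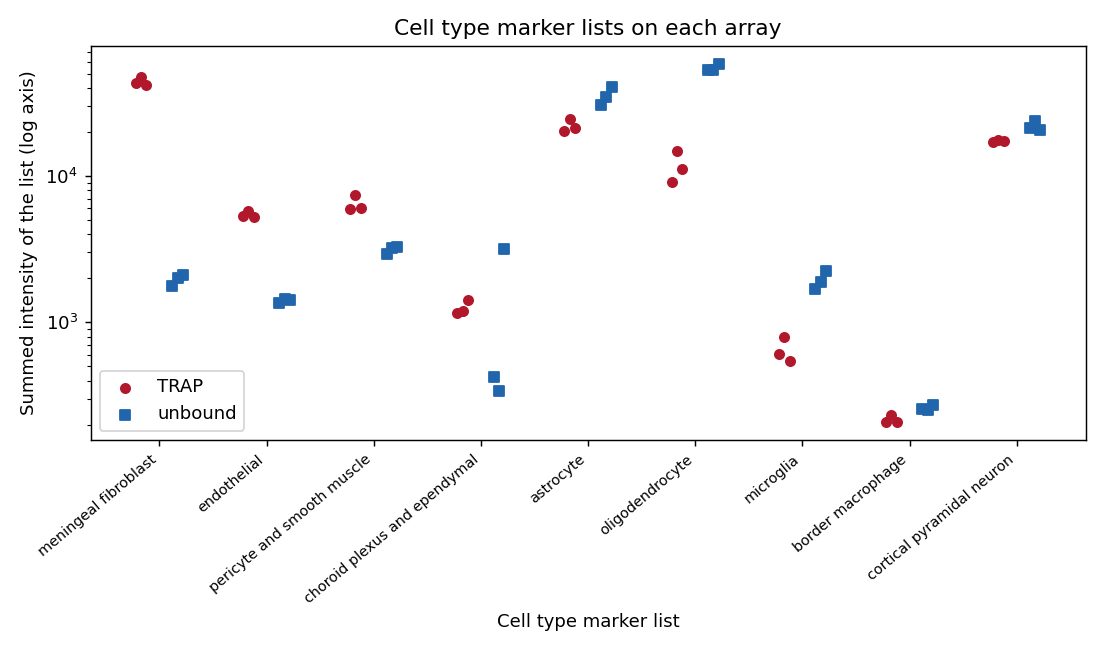
Summed intensity (log axis) of each cell type marker list on each array, TRAP arrays as circles left of unbound arrays as squares. The meningeal fibroblast list sums to 42083 to 47244 on TRAP arrays against 1773 to 2117 on unbound arrays, while the oligodendrocyte and microglia lists lie lower on TRAP arrays.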

How the data were processed

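Per the submitters' processing notes, GCRMA (version not given in the sources used here) produced the deposited intensities, which are on a linear scale. Per the labels' protocols, 15 ng of RNA was amplified in 2 cycles, which favours sequence near the poly(A) tail. Whether the 6 arrays were processed together is not stated. If each group was processed apart, that step cannot be told apart from the difference between TRAP and unbound RNA. Of tested probe sets, 17.9% to 21.6% had identical values on any 2 arrays of the same group and 0% on arrays of different groups; their spread is understated.

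Gene symbols come from the platform annotation; of 45101 probe sets 34958 have 1 symbol, 932 several and 9211 none, and 64 are controls. No genome coordinates of probe sets were used, and 0 value columns were left out. Log2 intensities without a pseudocount were fitted with limma 3.58.1 in R 4.3.3 (lmFit, eBayes, treat; no covariate; two-sided tests). Benjamini-Hochberg adjustment ran over all 22591 probe sets whose mean reached 50 in at least 1 group, or over 12070 genes for counts of genes. The number of arrays limits precision. The fit was tested on simulated data.

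Same-numbered TRAP and unbound samples deviated together from their group means (correlations across probe sets of 0.42, 0.45 and 0.37), so replicate number was used as a block in an alternative. Other alternatives changed the filter, the scaling, low values, the variance model, repeated values and probe set types, or left out 1 array. The members and the lists were chosen with earlier results of these data known. Genes named are all members and listed partners, the 3 genes nearest to Anxa2 and to Ahnak, S100a10, and the called gene of largest fold in the direction of each marker list's median. The series text can also be read as requiring 50 in both groups, which was an alternative. Promoter sequences are from RefSeq, GRCm38.p6.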

Additional observations from a re-analysis of the deposited data

How the results depend on the processing

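The 8 member genes were called higher under each alternative that kept their probe sets, except that 7 or 8 were when 1 array was left out, 7 of 7 when probe sets with repeated values were left out, and 5 of 5 when the s, x and a types were left out. Member probe sets called higher numbered 12 of 14 as reported, 11 to 13 without 1 array and 7 of 8 without those types. With no filter 5 of 21 were lower, 3 of them past 2-fold. With both group means at 50 or more, and without repeated values, 0 were lower by limma, also at an unadjusted p under 0.05, because the Anxa7 probe set was no longer tested; 0 were lower past 2-fold. Those past 2-fold and higher numbered 7 as reported, 5 to 6 without 1 array, and 4 with both means at 50, with values under 50 raised to 50, without repeated values and without those types. Of 12 partner and family genes tested, 7 were higher and 4 lower as reported. With both means at 50, 4 of 9 were higher, and without repeated values 2 of 6. With no filter 8 of 18 were lower, and after median centring 2 of 12. Over all probe sets, 4663 of 22591 were higher as reported, 3744 of 19452 with both means at 50 and 1855 of 10475 without repeated values. Lower were 10767 of 22591 as reported, 22216 of 45037 with no filter and 5712 of 22591 after median centring. Marker genes called higher numbered 33 of 74 as reported and 18 of 46 without repeated values. Hltf turned to 0.14 after median centring; the cause was not tested. With the replicate block 12 member probe sets were higher and 1 lower; Anxa6 1415818_at lost its call (adjusted p = 0.051), 1429246_a_at gained one (0.038), Hltf lost its call (0.080), and no other member or listed partner changed its call. Limma adjusted p with the block was 8.0e-04 for Anxa2 1419091_a_at (7.2e-06 without it) and 0.0011 for Anxa1 1448213_at (2.4e-05 without it). Values near background limit the folds of Ahnak 1428057_a_at and 1428058_at, Anxa4 1424176_a_at, Anxa7 1438764_at, Anxa8, Ahnak2, S100a4, Pgm5, P2ry12, Gfap and Mrc1.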
